A study of Rattus norvegicus with 24 samples.

Results

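Lung tissue of rats that had breathed cigarette smoke was compared with lung tissue of rats that had breathed air alone. The comparison used 12 of the 24 libraries of the study, the 6 smoke and the 6 air libraries as labelled, and took in every gene of the count table. All animals were male Fischer rats of the F344/DuCrl strain, 3 months old on purchase, and each library held RNA from a piece of lung of 1 animal. Smoke rats sat in a whole-body chamber for 3 hours on Tuesdays and Fridays at 40 mg/m3 in week 1 and at 80 mg/m3 from week 2, with air alone in week 3, up to week 29. Air rats breathed air for the same 29 weeks. The remaining groups served as a second pair with and without smoke: combined rats received silica dust at 15 mg/m3 for 6 hours on each of 5 days in week 3 along with the smoke schedule, which began at 45 mg/m3 in their week 1, and silica rats received the same dust without smoke. All 4 groups were held under a light-dark cycle, and the labels give no clock time for tissue collection or for the hours of smoke.

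A few libraries stood apart. Smoke 2 held 21629 counts in 3469 genes, and 56.3% of them came from haemoglobin genes (exact binomial 95% interval 55.6% to 57.0%, counting error only). The remaining smoke libraries held 1375436 to 2987836 counts and the air libraries 1920522 to 4687805. In smoke 2, 1 count stands for 53.0 CPM (counts scaled to a common library size, after TMM) and 3 counts for 159 CPM, so a gene at 0 there may be as high as 159 CPM. The defining lung markers were close to absent in it, with Sftpc at 424 CPM and Scgb1a1 at 53.0 CPM. In smoke 3 to 6 Sftpc, surfactant protein C, ran from 4849.9 to 6186 CPM, against 4063 to 7577 CPM in air libraries. Scgb1a1, the club cell secretory protein, ran from 2345 to 2845 CPM in smoke 3 to 6, against 1401 to 2459 CPM in air libraries. Smoke 1 carried the macrophage elastase Mmp12 at 57.2 CPM, where smoke 3 to 6 had at most 11.8 CPM, air libraries at most 17.9 CPM and silica libraries had a median of 64.2 CPM. Silica 1 had 3.20 CPM of Mmp12 and 1.83 CPM of the macrophage-secreted Spp1, against at least 57.4 and 51.0 CPM in silica 2 to 6 and at most 17.9 and 6.73 CPM in air libraries. Smoke 1 thus carried a silica-like level of Mmp12 and silica 1 an air-like one, and whether the labels of these libraries are right was not tested. Air 6 carried the collagen gene Col1a1 at 461 CPM and a summed level of 20240.5 CPM over the extracellular matrix list, against a median of 7963 CPM over the 6 air libraries. Values are therefore also given without smoke 1 and smoke 2, and where it matters without these and air 6 or silica 1.

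The mammalian clock is a feedback loop in which the activators Clock and Arntl (Bmal1) switch on the genes of their own repressors. Among these are the Per and Cry genes and the nuclear receptors Nr1d1 and Nr1d2 (Rev-erb), which in turn silence Arntl. A second set of output factors, Dbp, Tef and Hlf, passes the rhythm on to target genes, and the adrenal glucocorticoid hormone, itself rhythmic, helps to set the phase in lung. Clock factors act on short promoter motifs, mainly the E-box and the D-box, and the Rev-erb receptors act on the nuclear receptor half-site. The windows of 250 bases before the annotated start are shown for the 2 receptor genes because these had the 2 smallest p-values of the comparison. They are RefSeq sequences of assembly GRCr8, read 5′ to 3′ on the gene's strand, with motif letters in capitals.
Nr1d1, start 1, chr10:84231813-84232062, minus strand: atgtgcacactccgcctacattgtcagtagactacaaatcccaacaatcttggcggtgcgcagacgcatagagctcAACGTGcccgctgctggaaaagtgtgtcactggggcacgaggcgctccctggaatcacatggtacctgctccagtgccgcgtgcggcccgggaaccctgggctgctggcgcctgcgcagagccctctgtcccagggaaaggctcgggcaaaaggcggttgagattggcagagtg
Nr1d1, start 2, chr10:84229455-84229704, minus strand: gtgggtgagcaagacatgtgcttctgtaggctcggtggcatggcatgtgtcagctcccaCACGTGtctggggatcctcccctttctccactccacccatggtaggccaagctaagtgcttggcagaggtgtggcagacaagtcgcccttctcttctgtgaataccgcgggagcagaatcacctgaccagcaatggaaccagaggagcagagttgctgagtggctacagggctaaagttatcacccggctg
Nr1d2, chr15:9954784-9955033, plus strand: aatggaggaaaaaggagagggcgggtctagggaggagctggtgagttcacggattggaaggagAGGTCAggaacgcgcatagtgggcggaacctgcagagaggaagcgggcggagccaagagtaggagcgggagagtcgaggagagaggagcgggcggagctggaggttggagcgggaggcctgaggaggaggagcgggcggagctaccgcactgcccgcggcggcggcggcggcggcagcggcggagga
Both strands were searched for the E-box, spelled CACGTG. A variant of it with another last letter, spelled CACGTT, was searched as well and appears above on its opposite strand. The half-site was spelled AGGTCA, the D-box TTATGTAA and the D-box variant TTATGCAA. No motif overlapped another in these windows. Nr1d1 held an E-box variant 174 to 169 bases before its first start and an E-box 191 to 186 bases before its second start. Nr1d2 held a half-site 187 to 182 bases before its start. Per3 and Dbp held no match in this window. Of the 33469 windows of the same length in the table, 5.59% held the E-box, 4.07% the variant and 14.1% the half-site, against 0.828% and 0.789% for the D-box and its variant, so a match is a description of these letters only. Of the 6 genes looked up, 5 had an entry.

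With smoke, 5 clock genes were higher, 2 glucocorticoid-induced genes were lower, and the other called genes belonged to neither list. Of 13322 genes tested, 13 were higher (0.0976%) and 7 lower (0.0525%) in smoke lungs, 20 in all (0.15%), by edgeR's quasi-likelihood test at an adjusted p under 0.05. Without adjustment 1105 genes had p under 0.05. Without smoke 1 and smoke 2, 8 genes were higher (0.0588%) and 5 lower (0.0367%) of 13608 tested, and 10 of the 20 genes were still called. All 20 kept their direction there.

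**Figure D1:**
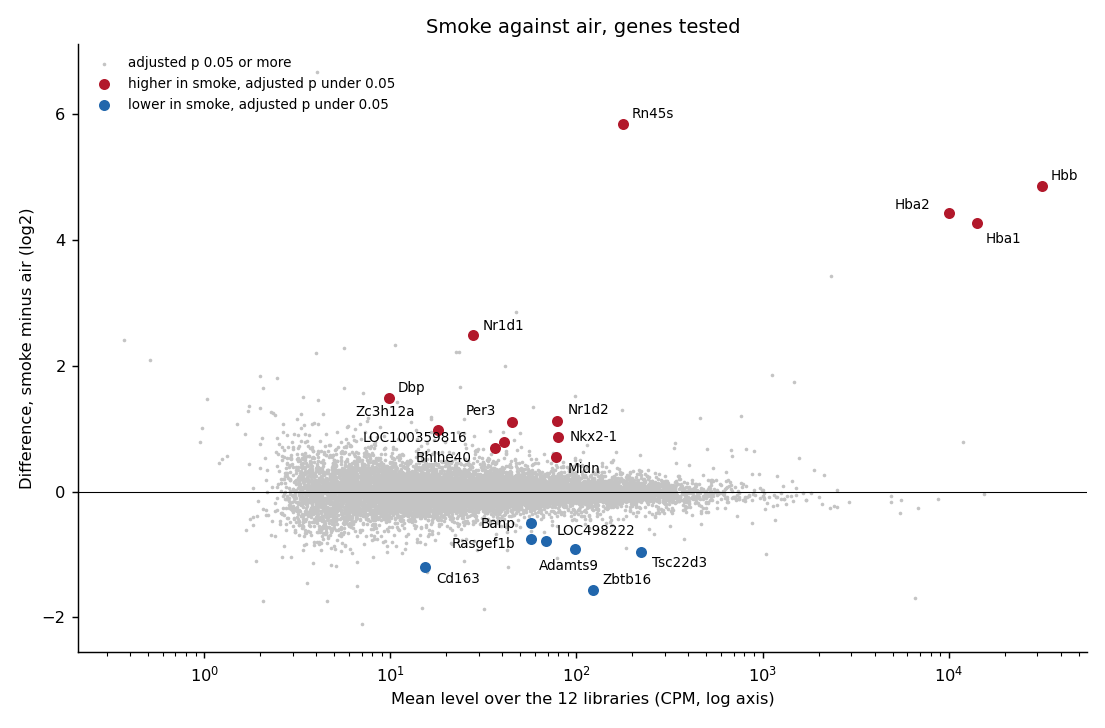
Difference in expression (log2, smoke minus air) of the genes tested against their mean level over the 12 libraries (CPM, log axis), with genes higher in smoke in red, genes lower in blue and the rest in grey. The 13 red points hold 3 haemoglobin genes and Rn45s at the top, which rest on single libraries, and Nr1d1 stands next below them. The 7 blue points end with Zbtb16.

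The clearest change was in the Rev-erb receptors. Nr1d1 (gene ID 252917), which represses Arntl, had 0, 53.0 and 74.5 CPM (lowest, median and highest) in smoke libraries, against 4.61, 9.73 and 13.5 CPM in air libraries. Smoke 3 to 6 lay between 52.1 and 74.5 CPM and smoke 1 at 23.5 CPM, all above the highest air library, and smoke 2 had no count. Nr1d1 rose by 2.49 ± 0.26 on the log2 scale (SE, n = 6 and 6; edgeR adjusted p = 1.85e-06), and by 2.71 ± 0.22 without smoke 1 and smoke 2 (adjusted p = 1.65e-08). Its close relative Nr1d2 (259241) had 0, 131 and 139 CPM in smoke libraries, against 41.5, 54.0 and 75.2 CPM in air libraries. Smoke 3 to 6 were within 130 to 139 CPM and smoke 1, at 76.7 CPM, was only just above the highest air library. Nr1d2 rose by 1.12 ± 0.14 (adjusted p = 3.77e-05). Nr1d1 shares its end with Thra, a thyroid hormone receptor gene that overlaps it in RefSeq GRCr8, and whether strand was used in counting is unknown here. Thra did not pass, at -0.12 ± 0.12 (edgeR adjusted p = 0.863).

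Per3 (78962), a Period gene whose product joins the repressor complex, had 32.4, 63.3 and 82.2 CPM in smoke libraries, against 20.9, 27.8 and 37.9 CPM in air libraries. Smoke 3 to 6 lay above every air library, at 56.0 CPM or more, smoke 1 lay among the air libraries, and the value of smoke 2 is a single count. Per3 rose by 1.11 ± 0.17 (adjusted p = 0.00135). Dbp (24309), the output factor that binds D-boxes, had 0, 17.3 and 21.1 CPM in smoke libraries, against 3.95, 5.78 and 7.88 CPM in air libraries. Its smoke 3 to 6 values began at 15.7 CPM, while smoke 1 was within the air range. Dbp rose by 1.49 ± 0.24 (adjusted p = 0.00163), and by 1.70 ± 0.21 without smoke 1 and smoke 2. The repressor Bhlhe40 (79431), which competes for E-boxes, had 0, 47.7 and 60.5 CPM in smoke libraries, against 24.4, 31.0 and 36.3 CPM in air libraries, and rose by 0.70 ± 0.14 (adjusted p = 0.0264). Its highest smoke library was smoke 1, and silica libraries had 32.9, 47.9 and 61.9 CPM of it. Without smoke 1 and smoke 2 Bhlhe40 stood at 0.63 ± 0.14 (adjusted p = 0.0917). Its call was also lost without any one of smoke 1, 3 and 4 and air 3 and 4, with adjusted p up to 0.100.

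Arntl, the activator that Rev-erb receptors silence, had 0, 44.7 and 69.4 CPM in smoke libraries, against 58.2, 67.8 and 82.5 CPM in air libraries. Smoke 3 to 6, at 37.8 to 51.5 CPM, lay below every air library, and smoke 1 was the one at 69.4 CPM. Arntl stood at -0.45 ± 0.13 with all libraries (adjusted p = 0.230) and fell by 0.61 ± 0.12 without smoke 1 and smoke 2 (adjusted p = 0.0296). Its partner Clock stood at -0.19 ± 0.09 (adjusted p = 0.575), and its highest smoke library, at 186 CPM, was below its lowest air library, at 194 CPM. The repressor Cry1 stood at -0.67 ± 0.18 (adjusted p = 0.214) and Nfil3, which opposes Dbp at D-boxes, at -0.45 ± 0.22 (adjusted p = 0.616). Tef, a relative of Dbp, ran from 106 to 136 CPM in smoke 3 to 6, against 75.7 to 101 CPM in air libraries, with a difference of 0.33 ± 0.11 (adjusted p = 0.278). The remaining Period genes did not pass: Per1, which glucocorticoids also induce, stood at -0.43 ± 0.22 (adjusted p = 0.629) and Per2 at 0.35 ± 0.18 (adjusted p = 0.632). Of 18 clock genes tested, 5 were higher, 0 lower and 13 were not called, with a median difference of 0.14 against -0.01 over all genes tested. At an unadjusted p under 0.05 there were 7 with a positive and 4 with a negative difference, where 1105 of all 13322 genes had such a p. DESeq2 and limma voom each called 4 higher and 0 lower. Over all genes, DESeq2 called 10 higher and 5 lower of 12773, and limma voom 5 and 2 of 13322. Voom with quality weights called 5 higher and 2 lower, against 28 and 44 over all 13322 genes. The list was chosen with earlier results of these libraries known, so its count is a description. The labels give no time of day, so its part in these differences was not tested.

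**Figure D2:**
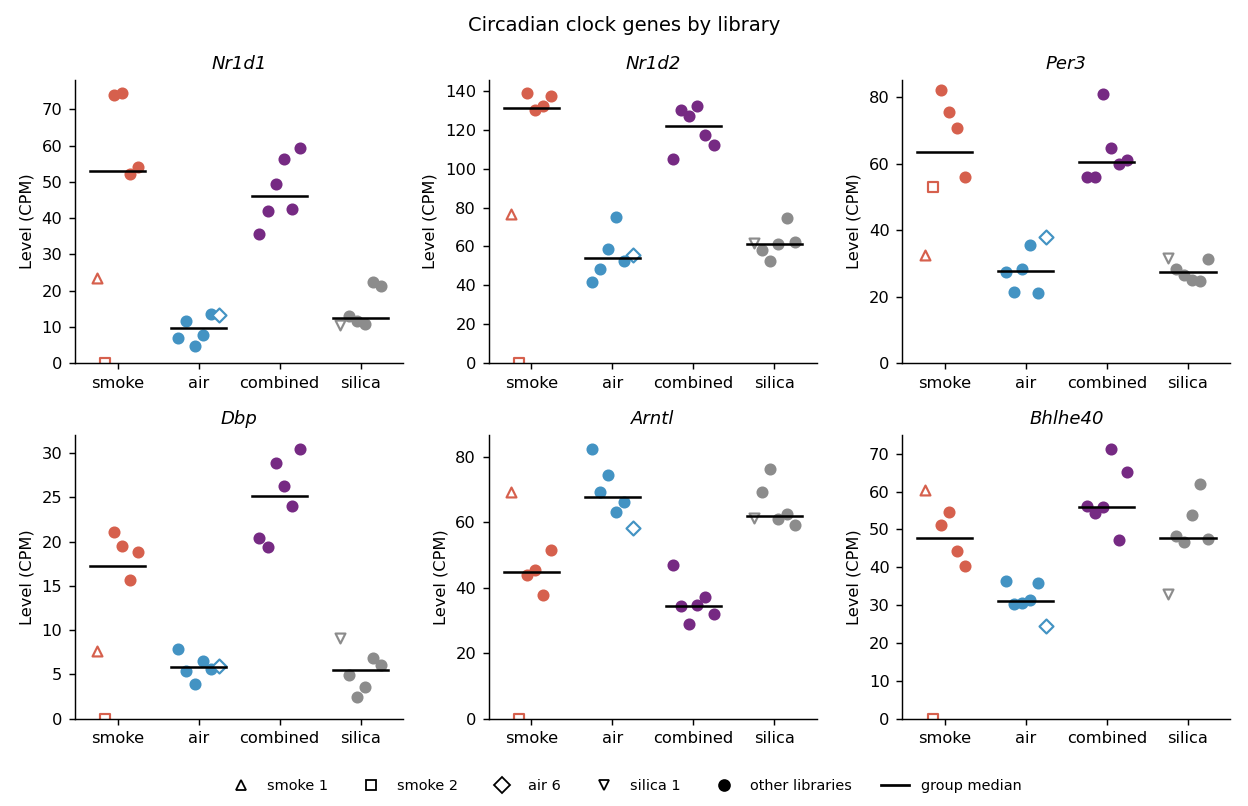
Level (CPM) of 6 clock genes in each library of the smoke, air, combined and silica groups, with a bar at the group median and open symbols for smoke 1, smoke 2, air 6 and silica 1. Nr1d1, Nr1d2, Per3 and Dbp are high in smoke 3 to 6 and in all combined libraries, while smoke 1 sits nearer to the air and silica libraries. Arntl shows the opposite order.

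Among genes that glucocorticoid hormone induces through its receptor, Zbtb16 and Tsc22d3 were lower. Zbtb16 (353227), a zinc-finger transcription factor strongly induced by glucocorticoids, had 0, 54.9 and 94.4 CPM in smoke libraries, against 133, 178 and 251 CPM in air libraries. Tsc22d3 (83514), the glucocorticoid-induced leucine zipper GILZ, had 126, 154 and 212 CPM in smoke libraries, against 224, 287 and 358 CPM in air libraries. The groups did not overlap in either gene, with smoke 1 at 77.0 and 153 CPM, and the 212 CPM of smoke 2 rest on its few counts. Zbtb16 fell by 1.56 ± 0.23 (edgeR adjusted p = 7.62e-04) and Tsc22d3 by 0.96 ± 0.14 (adjusted p = 4.20e-04), and without smoke 1 and smoke 2 they fell by 1.62 ± 0.26 and 0.99 ± 0.15. Groups that do not overlap were found in 64 genes lower (0.48%) and 5 genes higher (0.0375%) of those tested, and smoke 2, at 0 for most genes, places a library low in many of them. With smoke 3 to 6 alone against the 6 air libraries the counts were 141 lower (1.06%) and 133 higher (0.998%), and 12 of the 20 called genes were among them.

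Other members of this list did not pass with all libraries. Ddit4, a stress and hormone-induced inhibitor of mTOR signalling, ran from 20.7 to 32.6 CPM in smoke 3 to 6 and stood at 26.1 CPM in smoke 1, while air 1 to 5 ran from 56.8 to 99.7 CPM with air 6 at 4.92 CPM. The call turned on that air library: the difference was -1.19 ± 0.37 (adjusted p = 0.273) with all libraries, -1.17 ± 0.42 (adjusted p = 0.409) without smoke 1 and smoke 2, and -1.45 ± 0.22 (adjusted p = 4.46e-04) without smoke 1, smoke 2 and air 6. Nfkbia, the inhibitor of NF-kB, followed the same layout, with 159 to 250 CPM in smoke 3 to 6 while air 1 to 5 ran from 294 to 395 CPM with air 6 at 129 CPM. It stood at -0.60 ± 0.18 (adjusted p = 0.269) with all libraries and at -0.76 ± 0.13 (adjusted p = 0.00231) without the 3. Cebpd, an acute-phase transcription factor, stood at -0.83 ± 0.23 and -1.03 ± 0.21 (adjusted p = 0.217 and 0.0183). Fkbp5, which restrains the receptor itself, did not pass in either, at -0.54 ± 0.17 and -0.51 ± 0.19 (adjusted p = 0.278 and 0.373). Dusp1, 1 of the 2 members with a positive difference, stood at 0.06 ± 0.28 with all libraries and was not called. It had 181 to 476 CPM in smoke 3 to 6, against 109 to 567 CPM in air libraries. Without smoke 1, smoke 2 and air 6 it stood at -0.26 ± 0.23 (adjusted p = 0.823). Of 15 list members tested, 2 were lower, 0 higher and 13 not called. A negative difference was found in 13 of the 15, where 6968 of all 13322 genes had one, and the median was -0.54 against -0.01 over all genes. Unadjusted, 11 had p under 0.05, all of them negative, where 1105 of all 13322 genes had such a p. DESeq2 and limma voom each called 2 members lower, where they called 5 of 12773 and 2 of 13322 genes lower. Voom with quality weights called 8 members lower, where it called 44 of all 13322 genes lower. Without smoke 1, smoke 2 and air 6, 6 members were lower, Cdkn1a being the sixth, where 42 genes were lower (0.313%) and 21 higher (0.157%) of 13411 tested.

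**Figure D3:**
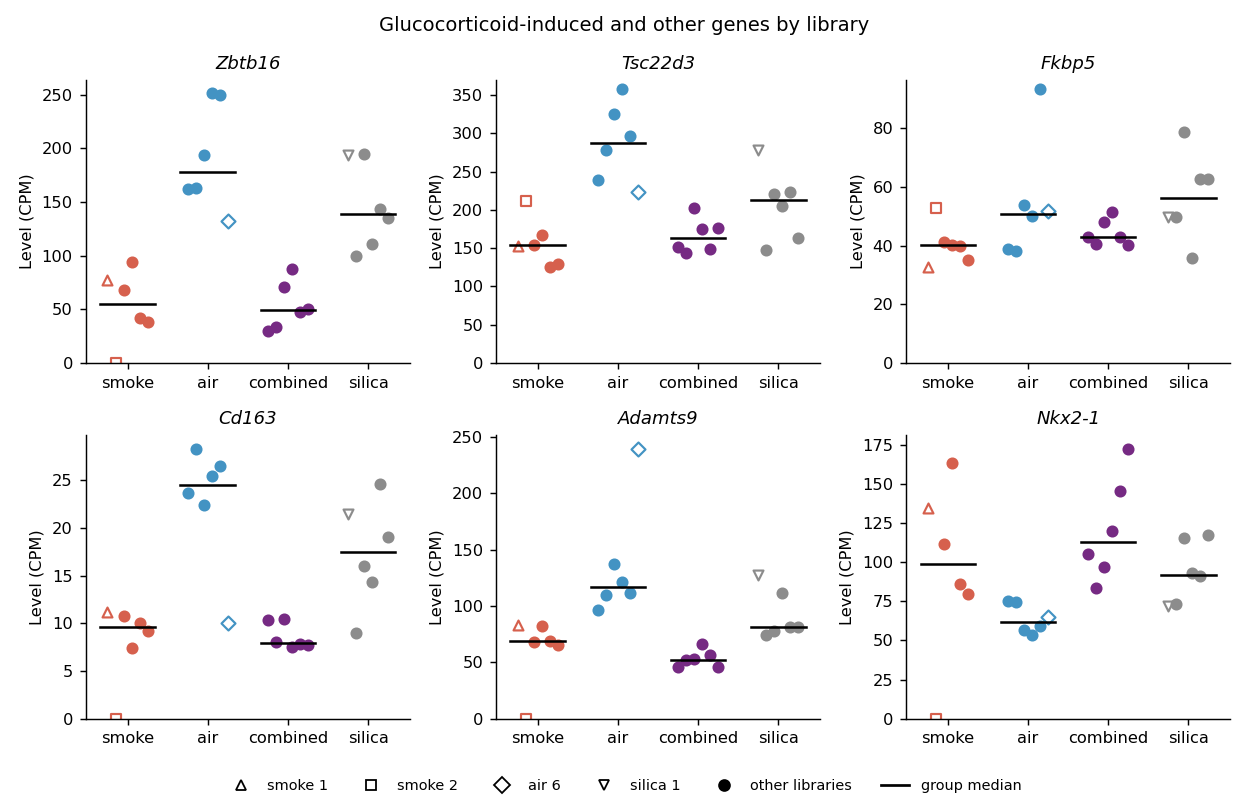
Level (CPM) of 6 genes in each library of the 4 groups, drawn as for the clock genes, with open symbols for smoke 1, smoke 2, air 6 and silica 1. Zbtb16 and Tsc22d3 are lower in every smoke library than in any air library. Cd163 is low in smoke libraries and in air 6, Adamts9 is highest in air 6, and Nkx2-1 is spread widely among smoke libraries.

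Among the other lower genes, Cd163 (312701), the scavenger receptor with which macrophages take up haemoglobin bound to haptoglobin, had 0, 9.58 and 11.2 CPM in smoke libraries, against 10.0, 24.6 and 28.3 CPM in air libraries. Air 1 to 5 had 22.4 CPM or more, and the 10.0 CPM belonged to air 6, within the smoke range. Cd163 fell by 1.19 ± 0.23 (adjusted p = 0.0238). It stood at -1.26 ± 0.26 without smoke 1 and smoke 2 (adjusted p = 0.0560), and at -1.44 ± 0.21 when air 6 was left out as well (adjusted p = 2.31e-04). Of 14 macrophage markers tested it alone passed, and Csf1r, the growth factor receptor of macrophages, stood at 0.01 ± 0.08 (adjusted p = 1.00). The summed macrophage markers ran from 779 to 980 CPM in smoke 3 to 6 and from 713 to 1144 CPM in air libraries. In these bulk samples, fewer cells of a type and less RNA per cell cannot be told apart. Adamts9 (312566), a secreted metalloprotease that cleaves proteoglycans, had 0, 68.8 and 83.3 CPM in smoke libraries, against 96.7, 117 and 240 CPM in air libraries, with no overlap. Adamts9 fell by 0.91 ± 0.18 (adjusted p = 0.0238), and by 0.70 ± 0.13 without smoke 1, smoke 2 and air 6, the air library at 240 CPM. Rasgef1b, a Ras-family exchange factor, fell by 0.76 ± 0.16 (adjusted p = 0.0375) and the transcript LOC498222, annotated as similar to an androgen-regulated protein, by 0.78 ± 0.16 (adjusted p = 0.0375). Banp, a nuclear DNA-binding protein, fell by 0.50 ± 0.11 (adjusted p = 0.0443). These 3 calls were lost without smoke 1 and smoke 2, with adjusted p from 0.0688 to 0.112 and differences of -0.71, -0.73 and -0.52. Leaving out 1 library also ended calls in this group of genes: Cd163 without smoke 3, 4 or 6 or air 3, 4 or 5 (adjusted p up to 0.0831) and Adamts9 without smoke 3, 5 or 6 or air 3 (up to 0.0757). Rasgef1b lost its call without smoke 1, 3, 5 or 6 or air 3, 4 or 5 (up to 0.137), LOC498222 without those or air 1 (up to 0.124), and Banp without those or air 1 or 2 (up to 0.206), all by edgeR.

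Among the other higher genes, Nkx2-1 (25628), the transcription factor that sets lung epithelial identity, had 0, 99.0 and 164 CPM in smoke libraries, against 53.6, 61.9 and 75.2 CPM in air libraries. All smoke libraries but smoke 2 lay above the air range, at 79.5 CPM or more, and Nkx2-1 rose by 0.87 ± 0.18 (adjusted p = 0.0375). Without smoke 1 and smoke 2 it stood at 0.82 ± 0.19 (adjusted p = 0.0929). Silica libraries, without smoke, had 71.7, 92.1 and 118 CPM of Nkx2-1, and in combined minus silica it stood at 0.36 ± 0.18 (adjusted p = 0.393). Nkx2-1 was 1 of 12 alveolar type 2 genes tested, and the others did not pass: Sftpc stood at -0.34 ± 0.28 (adjusted p = 0.816) and the list median was 0.00. Midn, midnolin, which carries nuclear proteins to the proteasome, had 0, 100.1 and 118 CPM in smoke libraries, against 60.2, 68.7 and 85.7 CPM in air libraries. It rose by 0.55 ± 0.11 (adjusted p = 0.0238) and still did without smoke 1 and smoke 2 (adjusted p = 0.0161). Zc3h12a, the RNase Regnase-1 that degrades inflammatory mRNAs, rose by 0.98 ± 0.20 (adjusted p = 0.0375), with smoke 1 highest at 39.3 CPM. Without smoke 1 and smoke 2 it stood at 0.79 ± 0.21 (adjusted p = 0.168). Silica libraries had 16.0, 32.3 and 38.7 CPM of Zc3h12a, against 10.2, 13.7 and 18.7 CPM in air libraries. LOC100359816, which the table describes as the histone methyltransferase SETD1B and lists beside a Setd1b line of the same gene ID, rose by 0.79 ± 0.17 (adjusted p = 0.04999). The Setd1b line stood at 0.52 and was not called (adjusted p = 0.113), nor without smoke 1 and smoke 2 (adjusted p = 0.132). Without smoke 1, smoke 2 and air 6 it was called, at 0.59 ± 0.13 (adjusted p = 0.0422). By edgeR, Nkx2-1 lost its call without smoke 1, 3 or 4 or air 3, 4 or 5 (adjusted p up to 0.188), and Midn without smoke 3 or 6 or air 3, 4 or 5 (up to 0.101). Zc3h12a lost it without smoke 1 or 6 or air 1, 2, 3 or 5 (up to 0.151), and LOC100359816 without smoke 2 to 6 or air 3 to 6 taken one at a time (up to 0.229).

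Among the called genes, Rn45s and the haemoglobin genes had the largest estimates and rested on single libraries. Rn45s, the ribosomal RNA precursor that the library kit is meant to deplete, stood at 2037 CPM in smoke 3 and at no more than 14.3 CPM in any other smoke library, against at most 15.0 CPM in air libraries. Its difference of 5.84 ± 1.14 (adjusted p = 0.0238) was 0.36 (adjusted p = 0.966) without smoke 3. Hbb, beta globin, stood at 351617 CPM in smoke 2 and at 1525 to 7905 CPM in the other smoke libraries, against 1651 to 2981 CPM in air libraries. Without smoke 1 and smoke 2 the differences were 0.66 ± 0.31 for Hbb, 0.55 ± 0.30 for Hba1 and 0.46 ± 0.27 for Hba2 (adjusted p = 0.590, 0.660 and 0.702). The erythroid list had 3 of 9 genes higher and a median of 1.85, and a median of 0.51 without smoke 1 and smoke 2.

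Park7, Prdm1 and Arntl were not called with all libraries and were called when smoke 1 and smoke 2, or smoke 1 alone, were left out. Park7, the oxidative stress sensor DJ-1, had 39.2 to 52.0 CPM in smoke 3 to 6, against 59.5 to 74.9 CPM in air libraries, and fell by 0.56 ± 0.10 (adjusted p = 0.0161). Prdm1, the repressor Blimp-1 of lymphoid and epithelial differentiation, had 36.9 to 43.5 CPM in smoke 3 to 6, against 22.1 to 28.7 CPM in air libraries, and rose by 0.65 ± 0.12 (adjusted p = 0.0173). The groups of 4 and 6 libraries did not overlap in either gene.

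The combined and silica groups gave a second estimate of the difference with smoke, from libraries that neither the smoke nor the air group shares, in the same edgeR model. Silica 4 was the shallowest of these, with 280484 counts in 13635 genes, where 1 count stands for 3.59 CPM and 3 counts for 10.8 CPM. The other silica libraries held 1627220 to 3333334 counts and the combined libraries 1084815 to 2734877. No fit was run without silica 4. In that comparison 33 genes were called (0.248%), 16 higher (0.12%) and 17 lower (0.128%). Of the 20 genes called with smoke alone, 19 had the same direction, where 55.4% of all genes tested did. The 19 included the haemoglobin genes and Rn45s, whose differences in smoke against air rested on single libraries. They also included small differences, such as LOC100359816 at 0.0008 ± 0.18, Midn at 0.06 ± 0.11 and Rasgef1b at -0.08 ± 0.16. Of the 20, 5 were called again: Nr1d1, Nr1d2, Per3, Dbp and Zbtb16. These 5 were also called when silica 1 was left out together with smoke 1 and smoke 2, with Nr1d1 at 1.43 ± 0.21 (adjusted p = 8.40e-04) and Zbtb16 at -1.45 ± 0.24 (adjusted p = 0.00427). There Rasgef1b at 0.01 ± 0.16 (adjusted p = 0.999) and LOC100359816 at -0.04 ± 0.18 (adjusted p = 0.982) also had the opposite sign to smoke against air. Nr1d1 had 35.5, 46.0 and 59.4 CPM in combined libraries, against 10.5, 12.3 and 22.4 CPM in silica libraries, with no overlap, and rose by 1.54 ± 0.26 (adjusted p = 0.00272). Dbp had 19.4, 25.1 and 30.5 CPM in combined libraries, against 2.46, 5.48 and 9.14 CPM in silica libraries, and rose by 2.03 ± 0.24 (adjusted p = 2.65e-05). For both genes the lowest combined library stood above the highest silica library. How many of all genes separate in this way in combined against silica was not counted.

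Nr1d2 rose by 0.95 ± 0.14 (adjusted p = 0.00113) and Per3 by 1.16 ± 0.18 (adjusted p = 0.00119) in combined against silica. Arntl fell by 0.86 ± 0.13 (adjusted p = 0.00119), with 28.9 to 47.0 CPM in combined libraries and 59.1 to 76.3 CPM in silica libraries. Npas2, which can stand in for Clock, fell by 0.79 ± 0.15 (adjusted p = 0.0109) and Tef rose by 0.62 ± 0.11 (adjusted p = 0.00431). The clock list thus had 5 members higher and 2 lower in combined against silica. Zbtb16 had 30.0, 49.1 and 87.3 CPM in combined libraries, against 99.8, 139 and 194 CPM in silica libraries, and fell by 1.54 ± 0.24 (adjusted p = 0.00119). Tsc22d3 stood at -0.32 ± 0.13 (adjusted p = 0.307), with silica libraries at a median of 213 CPM. Cd163 stood at -1.03 ± 0.24 (adjusted p = 0.0556) and Adamts9 at -0.78 ± 0.18 (adjusted p = 0.0641). Bhlhe40 stood at 0.26 ± 0.13 (adjusted p = 0.421). Zc3h12a, at -0.20 ± 0.19, was the gene with the opposite sign (adjusted p = 0.698).

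**Figure D4:**
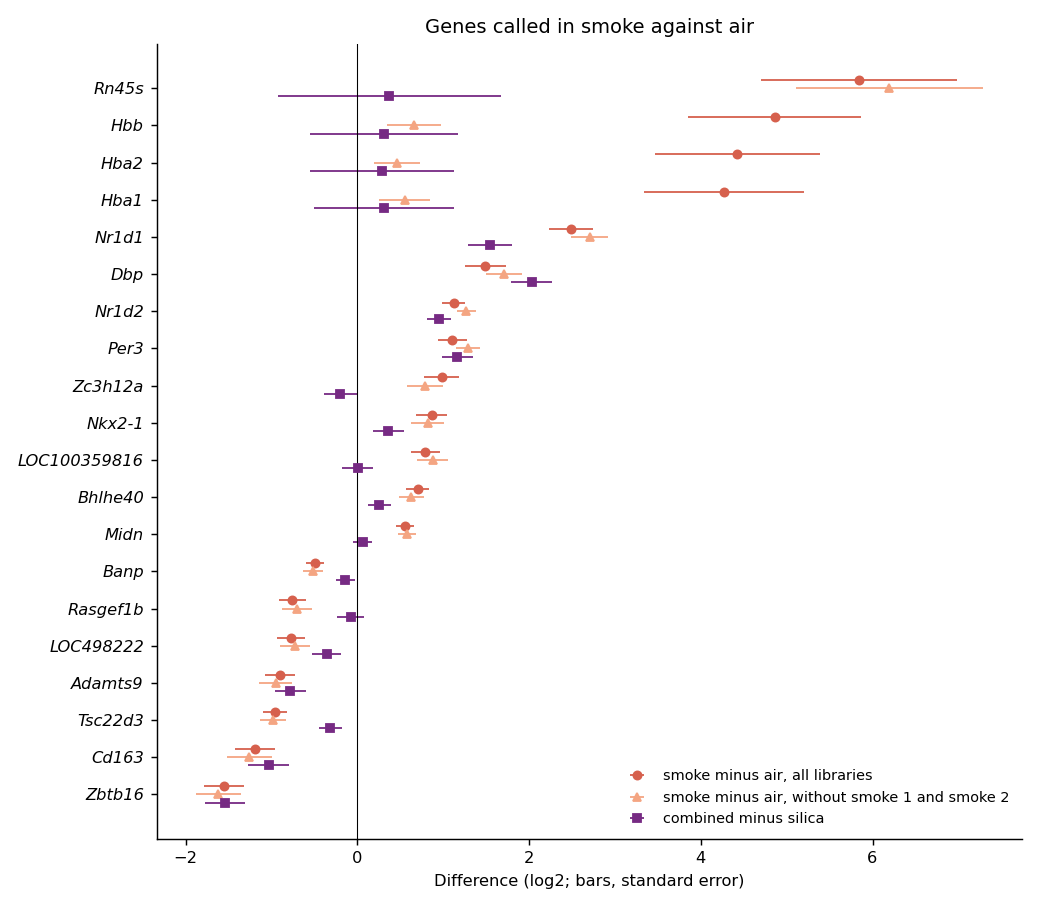
Differences (log2, with standard error bars) of the 20 genes called in smoke against air, from all libraries, from the fit without smoke 1 and smoke 2, and from combined minus silica. Nr1d1 is at 2.49, 2.71 and 1.54 and Zbtb16 at -1.56, -1.62 and -1.54 in the 3 estimates. Outside the first estimate the haemoglobin genes are at 0.66 or less, and Rn45s is at 0.37 in combined minus silica.

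Whether smoke acted differently with and without silica was tested as an interaction, combined minus silica against smoke minus air. With edgeR 0 of 13322 genes were called (0%), 977 had an unadjusted p under 0.05, DESeq2 called 1 and limma voom 0. The interaction estimate was -0.94 ± 0.37 for Nr1d1 (adjusted p = 0.635), 0.02 ± 0.33 for Zbtb16 (adjusted p = 1.00) and 0.65 ± 0.19 for Tsc22d3 (adjusted p = 0.393). Without smoke 1 and smoke 2, 5 genes were called (0.0367%): Gsdmd, the pore-forming gasdermin D, and the ribonuclease Rnaset2 with positive estimates of 0.75 ± 0.14 and 0.92 ± 0.17, and Prdm1, the G protein subunit Gnao1 and the actin-binding Synpo with estimates of -0.96 ± 0.17, -0.94 ± 0.18 and -1.01 ± 0.19 (adjusted p = 0.0438 for each). None of these calls remained when silica 1 was left out as well: edgeR, the one tool run on those libraries, called 0 of 13666 genes, with 1205 at an unadjusted p under 0.05, and the 5 genes had adjusted p of 0.0734 to 0.0739. Prdm1 had 19.8 to 31.0 CPM in combined libraries and 24.6 to 36.7 CPM in silica libraries.

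Enzymes that handle smoke chemicals did not pass. The aryl hydrocarbon receptor is the sensor of polycyclic hydrocarbons and switches on Cyp1a1 and its own repressor Ahrr, and NRF2 drives antioxidant genes. Cyp1a1 and Ahrr were too low to be tested. Cyp1a1 had counts in smoke 3 to 6, at 0.740 to 2.14 CPM, and none in smoke 1 and smoke 2, while air 5 had 0.374 CPM, air 6 had 28.7 CPM and the other 4 air libraries had none. Ahrr had 1.85 to 4.28 CPM in smoke 3 to 6 and 1.98 CPM in smoke 1, against 0.615 to 1.87 CPM in air libraries. The 5 tested receptor targets had 0 called by edgeR, DESeq2 or voom and 1 at an unadjusted p under 0.05. That gene was Aldh3a1, an aldehyde dehydrogenase, with 4.42 to 6.29 CPM in smoke 3 to 6 against 1.02 to 4.21 CPM in air libraries (1.06 ± 0.34, adjusted p = 0.279). The 19 tested NRF2 targets had 0 called by any of the 3 tools and 2 at an unadjusted p under 0.05, both negative, and a median of 0.03. Over all genes, 1105 of 13322 had an unadjusted p under 0.05. Nqo1 stood at 0.08 ± 0.15 (adjusted p = 0.954) and haem oxygenase Hmox1 at 0.47 ± 0.26 (adjusted p = 0.668), with smoke 1 highest in Hmox1 at 66.8 CPM.

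Several abundant lung enzymes and chaperones were lower in smoke 3 to 6 than in air 1 to 5, with air 6 apart from the other air libraries. The flavin monooxygenase Fmo2 ran from 734 to 933 CPM in smoke 3 to 6, while air 1 to 5 ran from 1118 to 1306 CPM with air 6 at 491 CPM. Cyp4b1, a lung cytochrome P450, ran from 471 to 507 CPM in smoke 3 to 6, while air 1 to 5 ran from 627 to 710 CPM with air 6 at 294 CPM. With all libraries these stood at -0.51 ± 0.20 and -0.33 ± 0.16 (adjusted p = 0.456 and 0.603), and without smoke 1, smoke 2 and air 6 at -0.59 ± 0.12 and -0.46 ± 0.08 (adjusted p = 0.0194 and 0.00646). Of 15 xenobiotic enzymes tested, 0 passed with all libraries by edgeR, DESeq2 or voom, with 3 at an unadjusted p under 0.05, and 3 were lower without the 3 libraries, Ces1d being the third. Of 20 heat shock chaperones tested, 0 passed by edgeR, DESeq2 or voom, 3 were lower by voom with quality weights and 5 had an unadjusted p under 0.05. Of these 20, 17 had a negative difference, where 6968 of all 13322 genes did, and the median was -0.17. Without the 3 libraries 4 were lower, which were Hsph1, Hspa8, Fkbp4 and Hsp90ab1. Over all genes, 42 of 13411 tested were lower there (0.313%). With all libraries, voom with quality weights called 44 of 13322 genes lower, and by edgeR 1105 had an unadjusted p under 0.05. Hspa8, the constitutive Hsc70 chaperone, had 218 to 312 CPM in smoke 3 to 6, against 314 to 472 CPM in air libraries. By edgeR its differences were -0.55 ± 0.16 with all libraries (adjusted p = 0.251) and -0.70 ± 0.14 without the 3 (adjusted p = 0.0125). Fkbp4, a co-chaperone of steroid receptors, stood at -0.38 ± 0.10 and -0.52 ± 0.08 (adjusted p = 0.214 and 5.46e-04).

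The listed cytokine, chemokine and neutrophil genes did not pass by edgeR, and the medians of these lists were smaller without smoke 1 and smoke 2. All 15 cytokine and chemokine genes tested had a positive difference, where 6354 of all 13322 genes did, with a median of 0.50. Without these libraries 16 were tested, 14 with a positive and 2 with a negative difference, and the median was 0.26. With all libraries 0 of the 15 were called by edgeR, DESeq2 or voom, and 9 had an unadjusted p under 0.05, where 1105 of all 13322 genes did. Ccl2, which attracts monocytes, had 36.4 CPM in smoke 1, 53.0 CPM (1 count) in smoke 2 and 1.84 to 7.14 CPM in smoke 3 to 6, against 0.526 to 5.23 CPM in air libraries. Ccl5, a chemokine outside the list, had a negative difference of -0.46 with all libraries (edgeR adjusted p = 0.465). Without smoke 1, smoke 2 and air 6 it was called lower, at -0.66 ± 0.15 (edgeR adjusted p = 0.0372). Neutrophil markers had a median of 0.60, with 0 of 8 called by edgeR, DESeq2 or voom, 1 called higher by voom with quality weights and 5 at an unadjusted p under 0.05. Over all 13322 genes, voom with quality weights called 28 higher. Csf3r, the receptor for the neutrophil growth factor G-CSF, had 34.6 to 40.7 CPM in smoke 3 to 6 and 44.0 CPM in smoke 1, against 17.1 to 32.4 CPM in air libraries, with no overlap, smoke 2 included at 159 CPM from 3 counts. It stood at 0.61 ± 0.17 (adjusted p = 0.230) and at 0.53 ± 0.18 without smoke 1 and smoke 2 (adjusted p = 0.376). The summed neutrophil markers were 163 to 245 CPM in smoke 3 to 6, 598 CPM in smoke 1 and 635 CPM in smoke 2, against 119 to 210 CPM in air libraries, and the part of these cells in the results above was not tested. Scgb1a1 had 2345 to 2845 CPM in smoke 3 to 6 and 1976 CPM in smoke 1, and stood at 0.55 ± 0.16 without smoke 1 and smoke 2 (adjusted p = 0.284).

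The extracellular matrix list had a median of -0.32 over 23 tested genes, which was 0.06 without smoke 1, smoke 2 and air 6. With all libraries 0 were called by edgeR, DESeq2 or voom, and 6 had an unadjusted p under 0.05, where 1105 of all 13322 genes did. Smooth muscle genes had medians of -0.20 and 0.14, and ADAMTS proteases -0.39 and -0.02, in the same fits. Endothelial markers had a median of 0.00, alveolar type 1 markers -0.03 and ciliated cell genes -0.05, and edgeR, DESeq2 and voom called 0 of them, with 1, 0 and 0 genes at an unadjusted p under 0.05. Summed levels in smoke 3 to 6 against air libraries were 5313 to 6066 CPM against 4888 to 6132 CPM for endothelial markers and 7205 to 8097 CPM against 6793 to 7828 CPM for alveolar type 1 markers.

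**Figure D5:**
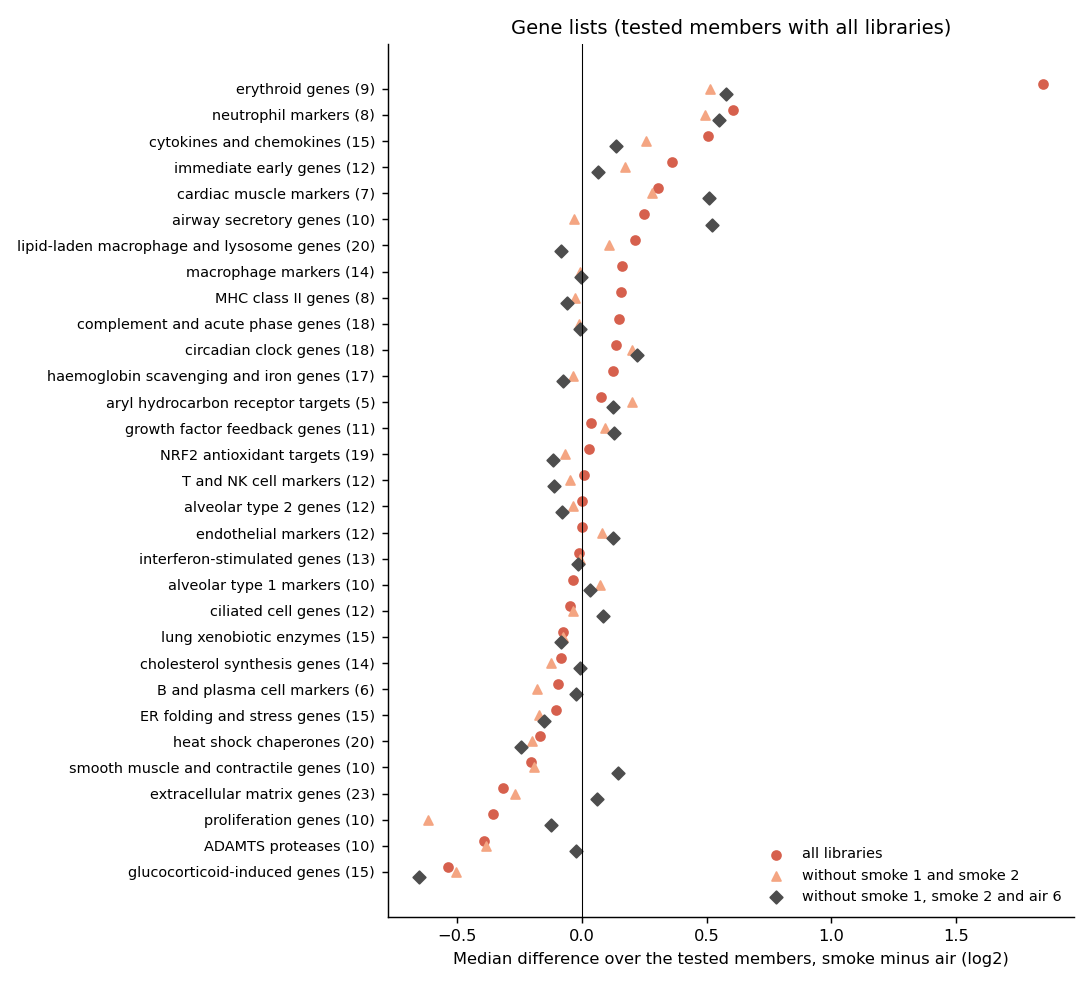
Median difference (log2, smoke minus air) over the tested members of each gene list with 5 or more of them, with the number tested in brackets, for all libraries, without smoke 1 and smoke 2, and without these and air 6. Glucocorticoid-induced genes have the lowest median in the first and the last set, at -0.54 and -0.65. Erythroid genes are at 1.85 with all libraries and at 0.51 without smoke 1 and smoke 2, and the matrix list is at 0.06 in the last set.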

How the data were processed

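Total RNA of rat lung was depleted of ribosomal RNA and sequenced with a strand-keeping kit, per the labels' protocols. The authors deposited raw counts of reads for each gene. HTSeq 0.11.2, SAMtools 1.8, HISAT2 2.1.0, Trimmomatic 0.35, bcl2fastq 2.19 and Cufflinks appear in the submitters' processing notes. Build, annotation and strand setting: not given in the sources used here. Near-identical genes such as the globins, and overlapping genes, are therefore uncertain. Of 30069 lines 26 repeats were removed, leaving 30043 genes.

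Groups follow the labels. Replicates are numbered in order of deposit and pair nothing. The labels give 1 rat per library, and 30 pairs within smoke or air all differed beyond counting noise (lowest chi-square per degree of freedom 1.87). One model over all 24 libraries was fitted with edgeR 4.0.16 in R 4.3.3 (filterByExpr minimum count 10, TMM, quasi-likelihood, 20 residual degrees of freedom), with contrasts smoke minus air, combined minus silica and their difference. Tests are two-sided with Benjamini-Hochberg adjustment over all genes tested, called under 0.05. Values after ± are standard errors, the log2 difference divided by the root of F. CPM are counts scaled to a common library size after TMM. Alternatives were DESeq2 1.42.0, limma 3.58.1 voom with and without quality weights, RLE scaling, other filters, the 12 libraries alone and leaving libraries out. Scripts were tested on simulated data.

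The comparison, the 34 gene lists (452 genes, 448 found, 395 tested, 5 through an older symbol in RefSeq GRCr8), the left-out libraries and the tests were chosen with earlier results of these data known. By rule, named genes were all called genes, those called only without smoke 1 and smoke 2, and 20 fixed genes. The rule also took called and the 2 most abundant uncalled members of each list. Not all of its uncalled genes are described above. The fixed genes S100a9, Chi3l1 and Lcn2 are left out there, at 1.52 ± 0.41, 0.63 ± 0.25 and 0.46 ± 0.43 in smoke minus air (edgeR adjusted p = 0.214, 0.462 and 0.846). Without smoke 1 and smoke 2 they stood at 0.70 ± 0.37, 0.19 ± 0.22 and -0.16 ± 0.47 (adjusted p = 0.649, 0.889 and 0.981). Genes called only without air 6, further clock, glucocorticoid, enzyme and chaperone list members, Thra, and the genes of the interaction without smoke 1 and smoke 2 were named after their values were seen.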

Additional observations from a re-analysis of the deposited data

Results flagged for a closer look

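Groups of 6 libraries were screened for a lowest or highest value far from the rest (Dixon's test), which by chance marks about 1 group in 20. Of 88 groups screened 35 were marked, and 30 of these were smoke 2. It had 0 CPM of Adamts9, Bhlhe40, Cd163, Dbp, LOC100359816, LOC498222, Midn, Nkx2-1, Nr1d1, Nr1d2, Rasgef1b, Zbtb16, Zc3h12a, Prdm1, Arntl, Cyp1b1, Ahrr, Hmox1, Per1, Hsp90aa1 and Col1a1, where 3 counts stand for 159 CPM. In the same library Banp stood at 105.9 CPM, Sftpc at 424 CPM, Scgb1a1 at 53.0 CPM, Hba1 at 153090 CPM, Hba2 at 110620 CPM and Hbb at 351620 CPM, beside a total of 21629 counts, 3469 genes with a count and a haemoglobin share of 56.3%. Among the other libraries, Cd163 was low in air 6 at 10.0 CPM and Cyp1a1 was high there at 28.7 CPM. Rasgef1b was high in air 5 at 114 CPM, Nqo1 was high in air 2 at 68.4 CPM and Rn45s was high in smoke 3 at 2037 CPM.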

How the results depend on the processing

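Nr1d1, Nr1d2, Dbp, Tsc22d3 and Zbtb16 were called in the same direction under every alternative run, and Per3 under all but the fit of the 12 libraries alone. With all libraries 13 genes were higher and 7 lower. These counts were 5 and 2 with limma voom, 28 and 44 with voom and quality weights, 3 and 2 with the 12 libraries alone, and 21 and 42 without smoke 1, smoke 2 and air 6. Without smoke 1 and smoke 2 there were 8 higher. DESeq2 called 10 and 5. Without smoke 1, smoke 2 and silica 1 there were 13 higher and 10 lower, and 0 genes in the interaction. Leaving out 1 library at a time gave 4 to 14 higher and 2 to 28 lower. The higher count was 8 without smoke 3, 4 without air 3 and 5 without air 4 or air 5. The lower count was 28 without air 6, 2 without smoke 3 or air 3, 3 without smoke 6, air 4 or air 5, and 4 without smoke 5. The interaction had 1 gene with DESeq2, 9 with quality weights, 5 without smoke 1 and smoke 2 and 11 without these and air 6. No result changed direction in a called value. Over the named genes, 1854 alternative values kept their status, called or not called, 151 lost a call, 25 gained one and 139 moved. Most named genes were not called with all libraries, so the 1854 are largely values that stayed uncalled. Only a gene called with all libraries could lose a call, so the 151 are to be read against those genes alone. No paired analysis was possible because the labels give no replicate numbers that the groups share. The depth of smoke 2 limits every gene below 159 CPM there. The causes of these shifts were not tested.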
